A study of Mus musculus with 16 samples.

Results

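The 5 genes Trbc2, Cd4, Ptprc, Il7r and Tcf7, which mark T lymphocytes, were followed through 16 RNA sequencing libraries of mouse duodenal epithelium. They were picked by name from the deposited table, which lists 2438 genes and holds all 5. The mutant animals lacked Ephb4, which encodes a receptor tyrosine kinase for ephrin-B2, in intestinal epithelial cells (KO, 7 libraries), and the control animals carried floxed Ephb4 alleles (flox, fl/fl, 9 libraries). Mice of both genotypes were 8 weeks old when a high fat diet began and ate it for 19 weeks, so no library comes from a mouse on ordinary chow. No label used here names the recombinase line or the sex of the mice, and none says that every library is a separate mouse. P-values therefore measure the spread between these libraries. The labels call the sample epithelium, whereas the design text speaks of tissue of the proximal small intestine.

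T lymphocytes recognise antigen through a receptor whose chains end in constant regions, and they need a coreceptor and a phosphatase at the membrane to pass that signal on. Cytokine receptors keep the resting cells alive, and a small set of transcription factors holds them in a naive or memory state. In the small intestine these cells lie between epithelial cells, in the lamina propria beneath them, and in lymphoid follicles. Trbc2 encodes a constant region of the receptor beta chain, and Cd4 the coreceptor of helper cells, which some other leukocytes of mice carry as well. Ptprc encodes CD45, a tyrosine phosphatase on all white blood cells. Il7r encodes the alpha chain of the interleukin-7 receptor, which innate lymphoid cells also carry, and Tcf7 encodes TCF-1, a Wnt-responsive factor of T cells and innate lymphoid cells. Of the 5, Trbc2 is thus the most specific to T cells.

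Trbc2 has a near copy, Trbc1, beside it on the same chromosome, and the letters of both show which reads can tell them apart. The coding exon 1 of Trbc2 differs from that of Trbc1 at 1 of 375 bases. The stretch around that base is shown with the base in capitals (GRCm38, GENCODE vM21, plus strand; chr6:41546929-41547049 for Trbc2 and chr6:41538417-41538537 for Trbc1).

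Trbc2 coding exon 1 stretch: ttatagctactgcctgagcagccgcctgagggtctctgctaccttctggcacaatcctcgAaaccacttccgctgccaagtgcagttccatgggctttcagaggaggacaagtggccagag
Trbc1 coding exon 1 stretch: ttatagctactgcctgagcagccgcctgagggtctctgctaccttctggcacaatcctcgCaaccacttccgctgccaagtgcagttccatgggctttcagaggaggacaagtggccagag

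The shorter coding exons 2 to 4, read through in order, differ more, and capitals mark every base at which the genes differ (Trbc2 exons within chr6:41547610-41548178, Trbc1 exons within chr6:41539114-41539662).

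Trbc2 coding exons 2 to 4: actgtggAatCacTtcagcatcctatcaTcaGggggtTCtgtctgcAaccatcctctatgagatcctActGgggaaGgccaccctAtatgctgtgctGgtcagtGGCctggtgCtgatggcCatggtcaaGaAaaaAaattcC
Trbc1 coding exons 2 to 4: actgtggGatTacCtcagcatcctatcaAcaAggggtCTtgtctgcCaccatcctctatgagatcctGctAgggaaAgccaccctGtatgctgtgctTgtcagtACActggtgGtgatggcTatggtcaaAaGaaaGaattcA

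Over 518 coding bases the genes were 95.6% identical, and the longest identical run was 259 bases. Trbc1 is not in the deposited table. The labels do not say how reads that match both genes were counted, so the Trbc2 values may hold only part of the beta chain reads, or some from Trbc1.

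RefSeq promoter windows of GRCm38.p6 were at hand for 3 of the 5 genes, Ptprc, Il7r and Tcf7. The bases before the start sites of Ptprc (chr1:138175307-138175555, minus strand) and Il7r (chr15:9529878-9530126, minus strand) are shown because both hold the string ACTTCCTG, a form of the ETS core, in capitals. The closest pair in level across libraries, Ptprc and Tcf7, does not share it.

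Ptprc upstream window: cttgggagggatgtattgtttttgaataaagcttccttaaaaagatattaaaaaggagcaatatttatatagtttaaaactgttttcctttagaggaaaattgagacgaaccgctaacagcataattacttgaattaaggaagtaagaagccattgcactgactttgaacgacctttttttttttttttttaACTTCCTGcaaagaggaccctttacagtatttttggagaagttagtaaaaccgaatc
Il7r upstream window: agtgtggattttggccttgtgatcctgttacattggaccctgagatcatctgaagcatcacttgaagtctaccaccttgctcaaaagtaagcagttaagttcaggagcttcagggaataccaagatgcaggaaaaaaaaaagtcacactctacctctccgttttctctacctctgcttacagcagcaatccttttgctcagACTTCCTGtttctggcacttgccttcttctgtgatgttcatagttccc

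The match lies 58 to 51 bases before the Ptprc start and 49 to 42 bases before the Il7r start. Searched on both strands (ACTTCCTG or CAGGAAGT), the string occurred in 2.68% of 32851 windows of the same length, and it was chosen after these windows had been read. A RUNX string (TGTGGT or ACCACA) occurred in 14.0% of windows, a GATA string (AGATAA or TTATCT) in 9.97% and a TCF string (CTTTGAT or ATCAAAG) in 3.20%. Neither window shown held any of these 3. A further Ptprc window, for another start site, overlaps the one shown, and its ETS string is made of the same bases. It also held a GATA string, and neither Tcf7 window held any of the 4.

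All 5 genes were higher in KO, by 1.85-fold to 2.30-fold, and for none did the groups separate fully. Values are normalised counts, that is, reads divided by the authors' size factor of each library. In bulk RNA, more T cells, more RNA per T cell, more of the other leukocytes that carry these genes, and a smaller share of enterocytes cannot be told apart. Whether cells other than leukocytes gave part of the reads of Tcf7, or of genes such as Cd44 in the lists below, was not tested. Because the table holds only genes that the authors had called different between these libraries, that all 5 were called is fixed by their being in it. The authors' adjusted p was under 0.05 with a higher level in KO for 6.97% of the 16488 genes they adjusted over.

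The receptor constant region Trbc2 (ENSMUSG00000076498, chr6:41546730-41548352, plus strand) ran from 94.3 over a median of 158 to 217 normalised counts in the 7 KO libraries, against 41.1, 84.5 and 112 in the 9 flox libraries. Of the KO libraries, 6 lay above every flox library, and KO replicate 2 did not. The means were 158 ± 41.3 in KO (SD, n = 7) and 83.5 ± 24.8 in flox (SD, n = 9), a 1.89-fold difference. In the authors' deposited table the log2 fold change was 0.91 and the adjusted p 0.000693. In limma, fitted to every listed gene whose mean reached 10, the log2 difference was 0.93 ± 0.21 (SE) with an adjusted p of 0.0173. A two-sided exact permutation test over all 11440 arrangements of the genotype labels gave p = 0.00122.

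The helper cell coreceptor Cd4 (ENSMUSG00000023274, chr6:124864692-124888221, minus strand) had 27.1, 62.9 and 161 normalised counts as lowest, median and highest KO value, against 13.2, 31.96 and 50.9 in flox. The highest value belonged to KO replicate 1, and the next KO library had 85.8. The KO libraries fell into 5 above every flox library and 2, replicates 2 and 3, below the flox median. Cd4 averaged 72.3 ± 44.9 in KO (SD, n = 7) and 33.7 ± 11.9 in flox (SD, n = 9), 2.15-fold apart. The log2 fold change in the authors' deposited table was 1.11, with an adjusted p of 0.0110. Cd4 did not pass in limma, where the log2 difference was 0.95 ± 0.33 (SE) and the adjusted p 0.0832, and the exact permutation p was 0.0169.

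The phosphatase gene Ptprc (ENSMUSG00000026395, chr1:138062861-138175708, minus strand) was the most abundant of the 5 in reads, at 426, 1198 and 1398 normalised counts in KO, against 344, 471 and 1097 in flox. The highest flox value was that of replicate 2, and the next flox library had 632. KO replicates 2 and 3 had 426 and 450, within the flox range, while the other KO libraries had 1074 or more. Mean levels were 1002 ± 397 in KO (SD, n = 7) and 540.4 ± 226 in flox (SD, n = 9), a 1.85-fold difference. For Ptprc the authors' deposited table held a log2 fold change of 0.89 (adjusted p = 0.0261). In limma the log2 difference was 0.84 ± 0.28 (SE) with an adjusted p of 0.0737, and the exact permutation p was 0.0214.

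The interleukin-7 receptor gene Il7r (ENSMUSG00000003882, chr15:9505788-9530176, minus strand) had 26.1, 72.2 and 98.0 normalised counts in KO, against 14.8, 28.7 and 82.1 in flox. Flox replicate 2 again stood highest in its group and reached into the KO range, so that only 2 KO libraries exceeded every flox library. Il7r averaged 66.7 ± 27.3 in KO (SD, n = 7) and 35.6 ± 19.9 in flox (SD, n = 9), 1.87-fold apart. Its log2 fold change in the authors' deposited table was 0.90 with an adjusted p of 0.0358. The limma log2 difference of 0.91 ± 0.32 (SE) had an adjusted p of 0.0841, and the exact permutation p was 0.0205. Il7r rested on as few as 13 reads in a library and Cd4 on as few as 12, so their single values carry more counting error than those of Ptprc, which had at least 358.

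The transcription factor gene Tcf7 (ENSMUSG00000000782, chr11:52252371-52283014, minus strand) showed the largest fold of the 5. It had 50.4, 147 and 186 normalised counts in KO, against 38.4, 58.3 and 122 in flox. Of the KO libraries 5 lay above every flox library, and replicates 2 and 3 were again the low ones, at 50.4 and 70.5. The means were 134 ± 52.5 in KO (SD, n = 7) and 58.1 ± 25.6 in flox (SD, n = 9), a 2.30-fold difference. For Tcf7 the authors' deposited table held a log2 fold change of 1.203 (adjusted p = 0.000811). The limma log2 difference was 1.15 ± 0.28 (SE) with an adjusted p of 0.0216, and the exact permutation p was 0.00350.

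**Figure D1:**
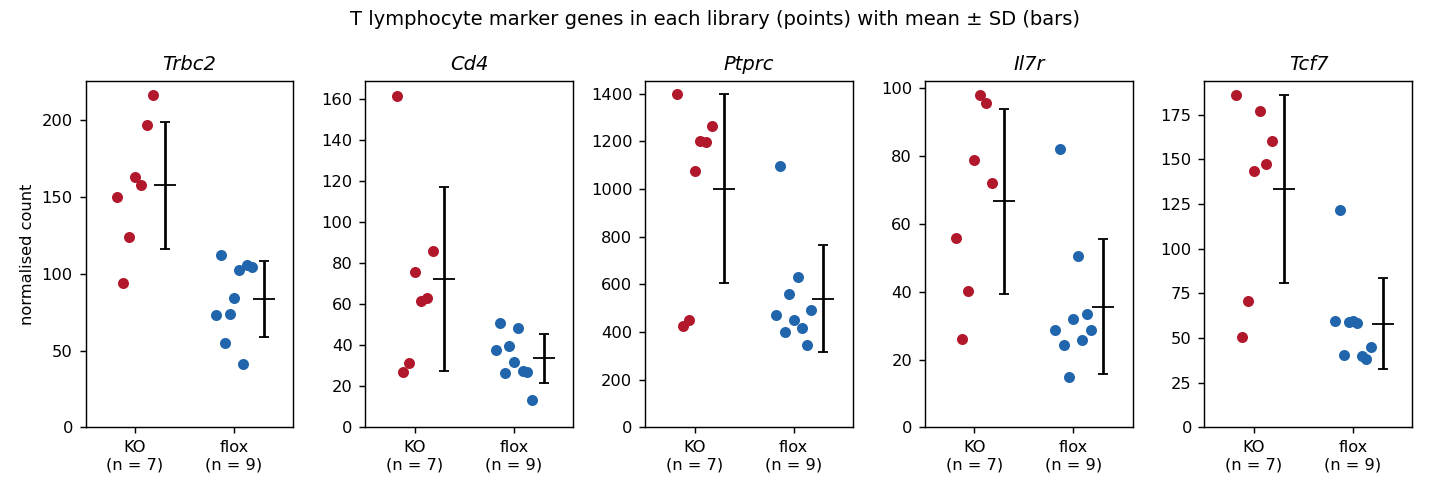
Normalised count of each gene in each library, KO at the left and flox at the right of each panel, with the mean ± SD drawn as a black bar beside the points. KO replicates 2 and 3 lie inside the flox range of Cd4, Ptprc, Il7r and Tcf7, and flox replicate 2 is the highest flox library in all 5 panels.

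In limma 2 of the 5 genes, Trbc2 and Tcf7, passed, where 2.72% of the 16488 genes, or 42.3% of the 1061 fitted genes with a positive difference, passed as higher. On whole reads recovered from the normalised values, edgeR's quasi-likelihood test called 3, adding Cd4 at an adjusted p of 0.0474, where 3.00% of the 16488 genes and 46.6% of the 1061 were called as higher. DESeq2 on the same reads called 4, all but Il7r with an adjusted p of 0.0531, where these shares were 5.29% and 82.2%. The 5 genes were thus called about as often as other listed genes that were higher. These fits, and the exact permutation tests of the 5 genes above, used the libraries on which the genes had been selected and add no separate support. Of the 1150 genes listed as higher, the KO and flox values did not overlap for 4.09% (7.26% of all 2438 genes in either direction), and for none of the 5 T lymphocyte genes. The median log2 fold change in the authors' deposited table was 0.91 over the 5 genes and 0.75 over all 1150. Among listed genes of like abundance, with a mean between 49.2 and 742 normalised counts, 637 were higher and 392 lower, and the median of those higher was 0.57. The SD of those higher was at median 21.0% of the mean in KO and 21.4% in flox. For the 5 genes it was 26.2% to 62.1% in KO and 29.7% to 55.8% in flox. A gene that varies more needs a larger fold to enter the table.

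Leaving out single libraries changed how many of the 5 genes passed limma. The adjusted p also moves with the number of listed genes that pass, from 518 without KO replicate 7 to 1462 without KO replicate 2. At an unadjusted p under 0.05, all 5 genes passed limma in each of these fits. Without KO replicate 2, all 5 genes passed limma, with log2 differences between 1.02 and 1.36. Without KO replicate 3, 4 passed, the exception being Il7r with an adjusted p of 0.0733. Without flox replicate 2, 4 passed, the exception being Cd4 with an adjusted p of 0.0635. Without KO replicate 1, 5 or 7, 1 passed in each case, which was Trbc2. Trbc2 passed without any single library, at adjusted p-values from 0.00796 to 0.0438.

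Levels were then compared per kilobase. Divided by the gene length in the deposited table, the normalised counts per kilobase of Trbc2 had medians of 228 in KO and 122 in flox, and Trbc2 exceeded Ptprc in all 16 libraries. Ptprc had medians of 65.4 in KO and 25.7 in flox and exceeded Tcf7 in 14 of 16 libraries. Tcf7, at 56.0 in KO and 22.2 in flox, exceeded Cd4 in all 16. Cd4, at 15.6 in KO and 7.93 in flox, and Il7r, at 15.5 in KO and 6.16 in flox, could not be ordered, since Cd4 was higher in 10 of 16 libraries. The length matters for Ptprc, because the listed 18313 bases join all its exons, including those of 8 transcripts with retained introns, whereas its longest coding transcript has 5074 bases. On that length Ptprc had medians of 236 in KO and 92.9 in flox, and Trbc2 was then higher in only 11 of 16 libraries. No annotated exon of another gene overlaps those of the 5 genes on either strand.

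The 5 genes tended to move together from library to library, but unevenly from pair to pair. KO replicates 1, 4, 5, 7 and 8 had sums over the 5 genes of 1535 to 1951 normalised counts, and KO replicates 2 and 3 had 623 and 716. Among flox libraries replicate 2 had 1464, and the others had 545 to 892. By this sum, of which Ptprc was the largest part, the libraries fell into a high and a low set, and each set held both genotypes. Ptprc and Tcf7 each showed the same gap. Cd4 did not, with flox replicate 2 at 50.9 beside flox replicate 6 at 48.7. Il7r had 55.8 in KO replicate 1 beside 50.6 in flox replicate 6. For Trbc2, flox replicate 2 at 112 lay below KO replicate 3 at 124. How far the correlations below record that separation was not tested, and no p of a single pair is given.

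**Figure D2:**
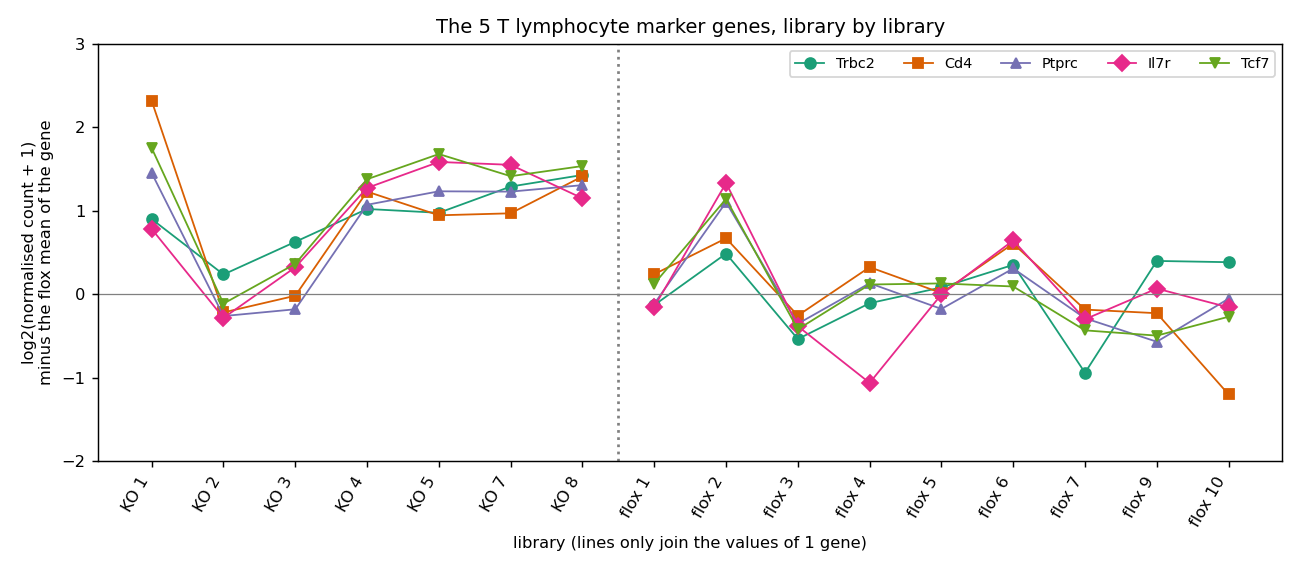
Log2 of the normalised count + 1 of each gene in each library, less the gene's flox mean, with KO libraries at the left of the dotted line and flox libraries at the right. KO replicates 2 and 3 lie near the flox mean in most of the 5 genes, and flox replicate 2 lies above it in all of them.

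Within KO, Pearson's r between pairs of the genes ran from 0.56 to 0.98 with a median of 0.85 over 10 pairs (n = 7 libraries). Within flox it ran from 0.11 to 0.93 with a median of 0.57 (n = 9 libraries). The closest pair was Ptprc and Tcf7, the phosphatase and the transcription factor, at 0.98 in KO and 0.93 in flox. The loosest was Trbc2 and Cd4 in flox, at 0.11, with 0.64 in KO. Spearman's rho was lower, with medians of 0.57 within KO and 0.43 within flox. For Ptprc and Tcf7 rho was 0.96 in KO and 0.70 in flox.

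After the 2 libraries farthest from the median of the first gene of a pair were left out, the median r was 0.74 within KO, and the pairs of Il7r with Ptprc and Tcf7 turned to -0.65 and -0.44. These 2 relations within KO therefore rest on the libraries left out. Ptprc and Tcf7 kept an r of 0.79 in KO and 0.65 in flox. Within flox the median became 0.40, and the pair of Trbc2 and Cd4 turned to -0.17. With genotype means subtracted, r over all 16 libraries had a median of 0.71 for the 10 pairs, against 0.22 for pairs of the 637 listed genes that were higher in KO and of like abundance. The central 90% of those pairs ran from -0.31 to 0.75, and 6 of the 10 pairs fell within it. Ptprc with Tcf7 at 0.96, Cd4 with Tcf7 at 0.80 and Cd4 with Ptprc at 0.78 lay above it, and Il7r with Tcf7 stood at its upper edge.

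**Figure D3:**
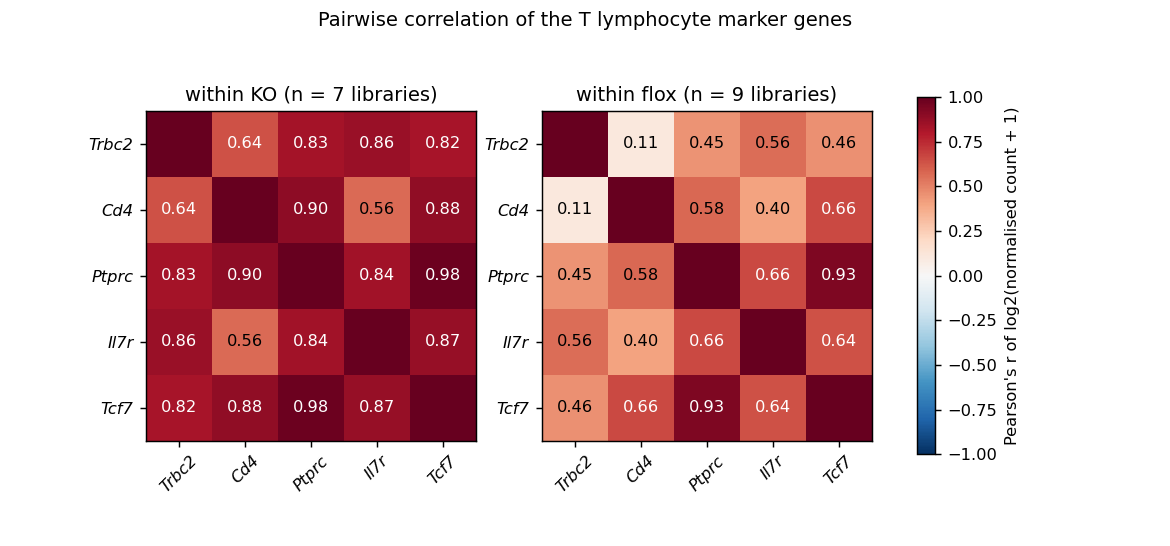
Pearson's r of log2(normalised count + 1) for each pair of the 5 genes, within the 7 KO libraries at the left and the 9 flox libraries at the right, on a colour scale from -1 to 1. All 20 values are positive, and Ptprc with Tcf7 is the highest in both panels.

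Each gene was also set against Ptprc within its library, as a level relative to the general leukocyte marker. The log2 ratio of Tcf7 to Ptprc was -2.89 ± 0.14 in KO (SD, n = 7) and -3.20 ± 0.19 in flox (SD, n = 9). The difference of 0.31 had a two-sided exact permutation p of 0.00402, or 0.0161 adjusted over the 4 ratios computed, and 3 of 7 KO libraries lay above every flox library. The ratios of Cd4, Trbc2 and Il7r to Ptprc differed by 0.11, 0.09 and 0.08 between KO and flox, less than the spread between libraries, with exact permutation p-values of 0.649, 0.718 and 0.762. All 5 genes had been selected as different between these libraries, which bears on the ratios too.

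Other genes of T cells were looked up in 7 lists of 105 genes in all. The deposited table held 26 of them (24.8%), beside 6.97% of all genes listed as higher. All 26 were higher in KO in that table, but Gimap9 had a limma log2 difference of -0.04 under quantile normalisation, 1 gene was negative with the stromal and endothelial covariate and 8 were with the B lineage covariate. Without the 5 marker genes these counts were 21 of 100. In limma 6 of the 26 passed, namely Trbc2, Tcf7, Cd28, Gimap4, Gimap9 and Cd44, beside 2.72% of all 16488 genes and 42.3% of the 1061 fitted genes with a positive difference, so that the 26 passed no more often than other listed genes that were higher. Without KO replicate 1, 5 or 7, 1 of them passed in each case. Without KO replicate 4 or 8 or flox replicate 3 or 10, 2 passed, and without flox replicate 1, 5, 6, 7 or 9, 3 passed. Without KO replicate 2, KO replicate 3 or flox replicate 2, the counts were 19, 12 and 15. At an unadjusted p under 0.05, 21 to 26 of the 26 passed limma in these fits. The median log2 fold change of the 26 in the authors' deposited table was 0.91. For genes outside the table no level is known here.

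Of 10 receptor and CD3 genes, Trbc2 and Cd3e were listed. Cd3e, an invariant signalling chain of the receptor, averaged 177 ± 60.4 in KO (SD, n = 7) and 119 ± 34.8 in flox (SD, n = 9). Cd3e followed the 5 genes loosely: with genotype means subtracted, its r over 16 libraries was 0.55 with Trbc2, 0.51 with Il7r, 0.34 with Ptprc, 0.33 with Tcf7 and 0.13 with Cd4. Trac, Trdc, Cd3d, Cd3g and Cd247, which also define T cells, were not listed. Of 18 coreceptor and surface genes 7 rose by the authors' test. They included the costimulatory receptor genes Cd28 (2.99-fold) and Icos (3.00-fold) and Ctla4, which encodes an inhibitory receptor of activated and regulatory T cells. Ctla4 averaged 16.9 ± 14.0 in KO (SD, n = 7) and 3.69 ± 2.80 in flox (SD, n = 9), a 4.57-fold difference, and had too few reads to enter the limma fit. The adhesion genes Cd2 (2.43-fold) and Cd44 (1.82-fold) and Cd52 (1.76-fold) completed that set beside Cd4. The CD8 chain genes Cd8a and Cd8b1 were not listed.

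Of 17 genes of receptor signalling 4 were listed, namely Ptprc, the CD45-associated Ptprcap (1.75-fold), the receptor-associated adaptor Trat1 (2.21-fold) and the calcium-dependent kinase Camk4 (1.36-fold). Of 15 transcription factor genes 4 were listed, and beside Tcf7 these were Satb1, a chromatin organiser of thymocytes (3.19-fold), and the Ikaros family genes Ikzf1 (2.15-fold) and Ikzf3 (1.83-fold), which B cells express as well. Of 21 cytokine and chemokine receptor genes 4 were listed. The receptor for CXCL12, Cxcr4, averaged 123 ± 93.7 in KO (SD, n = 7) and 25.3 ± 27.8 in flox (SD, n = 9), 4.86-fold apart. Il2ra, the alpha chain of the interleukin-2 receptor, was 3.43-fold higher, and the integrin gene Itga4 1.89-fold. Beside these stood Il7r.

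Of 8 genes of the Gimap family, GTPases that lymphocytes express, 5 were listed. Gimap3 averaged 433 ± 145 in KO (SD, n = 7) and 273 ± 84.6 in flox (SD, n = 9), 1.58-fold apart. Gimap4 and Gimap6 were both 1.71-fold higher, Gimap8 1.61-fold and Gimap9 1.52-fold, the last with the sign change under quantile normalisation given above. None of 16 genes of cytotoxic and intraepithelial lymphocytes, such as the granzyme gene Gzma, was listed, so the table gives no level for that kind of cell.

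**Figure D4:**
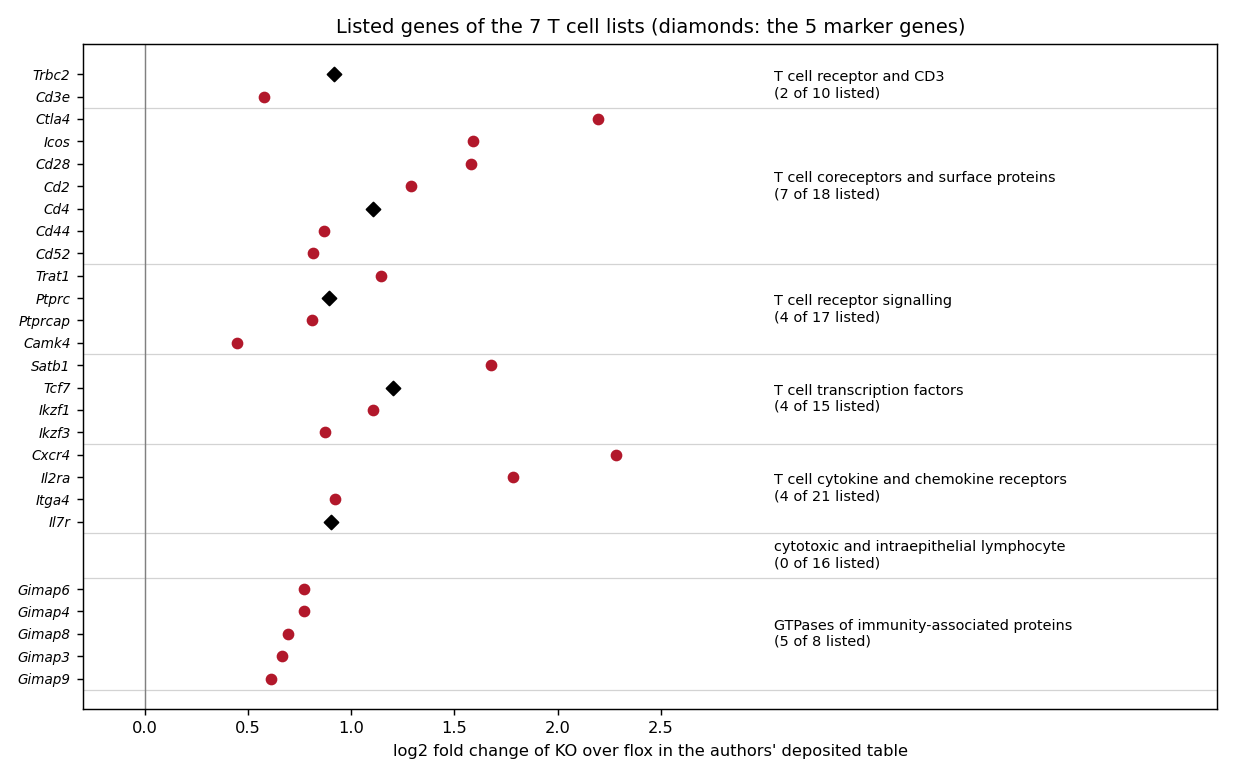
Log2 fold change of KO over flox in the authors' deposited table for the 26 listed genes of the 7 T cell lists, grouped by list, with the 5 marker genes as diamonds. All lie to the right of 0 in that table (Gimap9 turned to -0.04 in limma under quantile normalisation), Cxcr4 and Ctla4 lie farthest to the right, and the cytotoxic list has no point.

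Markers of other cells were also listed. Their counts stand beside 6.97% of all 16488 genes listed as higher and 1288 of them listed as lower. Of 24 B lineage genes 4 were listed, all higher in KO, among them Pou2af1 (3.61-fold), Fcrla (3.34-fold) and Mzb1 (2.22-fold), and their sum ran from 223 to 1445 in KO, against 141 to 594 in flox. The defining B cell genes Ms4a1 and Cd79a were not listed. Of 20 stromal and endothelial genes 4 were listed, all higher. Dcn was 5.12-fold higher by means, at 110 ± 149 in KO (SD, n = 7) and 21.4 ± 22.4 in flox (SD, n = 9). Its highest KO library had 433, whereas its medians were 54.9 in KO and 17.3 in flox. Pecam1 was 2.54-fold higher, and Lum stood at 13.9 ± 25.1 in KO (SD, n = 7) and 1.48 ± 2.42 in flox (SD, n = 9). The fourth, Vim, had the highest mean of the 4, at 247 ± 156 in KO (SD, n = 7) and 122 ± 58.9 in flox (SD, n = 9). The defining genes Col1a1, Pdgfra and Cdh5 were not listed. The sum of the 4 genes ran from 166 to 1310 in KO, against 97.9 to 434 in flox. Of 20 myeloid genes Flt3 alone was listed (5%, 3.40-fold higher), a share below that of all genes listed as higher. Of 11 mast cell genes Mcpt1 (2.31-fold) and Mcpt2 (2.35-fold) were listed. Of 25 proliferation genes 16 were listed, all higher, with Ccnb1, Mcm3 and Bub1 changed most, and their sum ran from 2799.5 to 6106 in KO, against 1131 to 3663 in flox. The 8 listed of 15 enterocyte genes were lower, with Fabp1, Rbp2 and Apoa1, genes of lipid and retinol handling, changed most, and their sum ran from 392185 to 639804 in KO, against 600882 to 844010 in flox.

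With genotype means subtracted, r over 16 libraries between each of the 5 genes and the summed B lineage genes ran from 0.48 to 0.83, and for the stromal and endothelial sum from 0.45 to 0.86. With Flt3, the only listed gene of the myeloid list, it ran from 0.32 to 0.86. The mast cell, enterocyte and proliferation genes did not follow the 5 genes in this way, with r from -0.35 to 0.26 for the mast cell sum, from -0.45 to -0.04 for the enterocyte sum and from -0.04 to 0.16 for the proliferation sum. All these values come from the same libraries and share their size factors. With the stromal and endothelial sum as a covariate, the limma log2 differences were 0.64 for Trbc2, 0.45 for Tcf7, 0.37 for Il7r, 0.16 for Ptprc and 0.09 for Cd4, and none of the 5 passed, with Trbc2 alone under an unadjusted p of 0.05. With the B lineage sum as a covariate they were 0.59, 0.37, 0.30, 0.09 and 0.09 in the same order, again with none passing and Trbc2 alone under an unadjusted p of 0.05. Both covariates were chosen after seeing the data. Whether the stromal and endothelial sum measures cells other than leukocytes was not tested.

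Pancreatic transcripts were abundant in 5 of the 9 flox libraries. Of 25 exocrine genes 22 were listed, all lower in KO, beside 1288 of all 16488 genes. The digestive enzyme genes Cel and Pnlip were among the largest falls in the authors' deposited table. The sum of the 22 genes ran from 403 to 1744 in KO, against 399 to 144883 in flox. Within flox, Trbc2 had a median of 102 in those 5 libraries and 78.7 in the other 4, and Ptprc 492 and 461. Tcf7 had 45.1 in those 5 and 59.7 in the other 4, Cd4 27.7 and 34.7, and Il7r 28.6 and 30.3. Without these 5 libraries the limma log2 differences ran from 0.71 for Il7r to 0.95 for Trbc2. None of the 5 genes then passed, and 2, Trbc2 and Tcf7, had an unadjusted p under 0.05. This setting was chosen after seeing the data, and 5 of 9 flox libraries is a large part of that group.

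**Figure D5:**
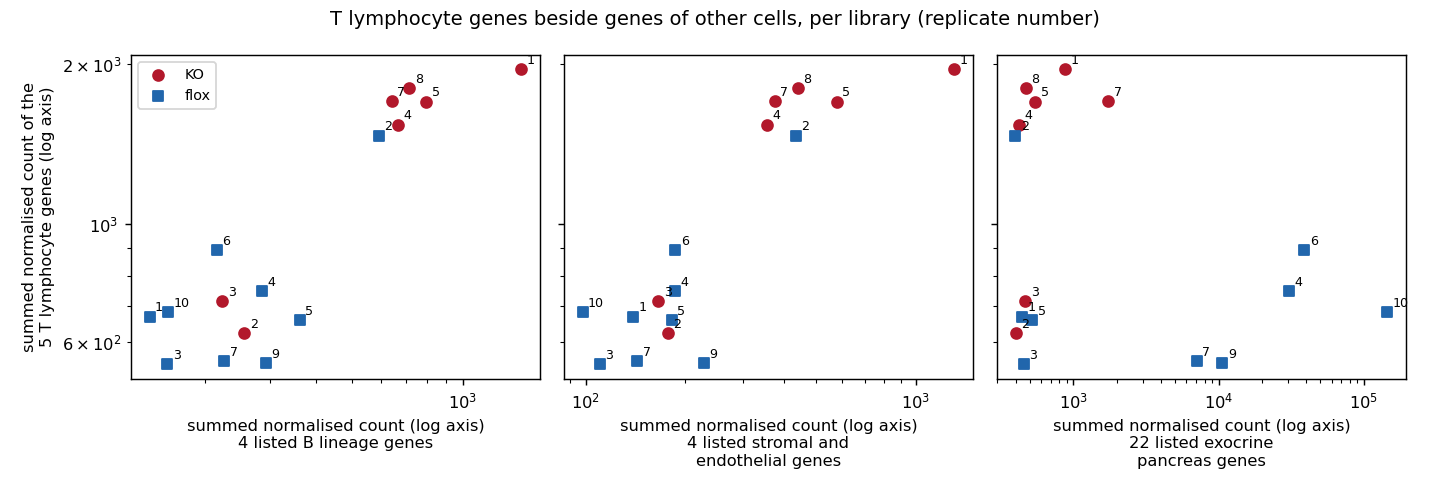
Sum of the 5 T lymphocyte genes in each library against the sum of the 4 listed B lineage genes, the 4 listed stromal and endothelial genes and the 22 listed exocrine pancreas genes, all in normalised counts on log axes, with KO as circles, flox as squares and replicate numbers beside them. Flox replicate 2 lies near the high KO libraries and KO replicates 2 and 3 near the other flox libraries in the left and middle panels.

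The listed protein-coding genes whose pattern was most like the mean of the 5 genes were found by Pearson's r over 16 libraries with genotype means subtracted, among 2175 genes. The 10 nearest were Ifi203 (0.98), Cd53 (0.96), Lcp1 (0.96), Ifi209 (0.96), Celf2 (0.96), Srgn (0.95), Arhgap15 (0.95), Ikzf1 (0.94), Msn (0.94) and Plek (0.93). Cd53 encodes a tetraspanin of white blood cells, Lcp1 the actin-bundling L-plastin of leukocytes, Srgn the granule proteoglycan serglycin, and Plek the platelet and leukocyte protein pleckstrin. Ifi203, of an interferon-inducible family, averaged 138 ± 56.9 in KO (SD, n = 7) and 77.4 ± 36.4 in flox (SD, n = 9). Lcp1 averaged 858 ± 376 in KO (SD, n = 7) and 448 ± 224 in flox (SD, n = 9). All 106 genes with an r over 0.8 were listed as higher in KO, and all 6 whose r was as far below 0 as lower. Among all genes compared, the median r was 0.32 for those higher and -0.33 for those lower. Direction and r thus went together across the table, in which 1150 of 2438 genes were higher.

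The genotype was checked on Ephb4 itself (ENSMUSG00000029710, chr5:137350109-137378669, plus strand), which had 23.3, 28.5 and 84.7 normalised counts as lowest, median and highest value in KO, against 103, 162 and 354 in flox. The groups did not overlap. KO replicate 1, the highest in KO, was also the KO library with the highest Cd4, Ptprc and Tcf7. Of all 16 libraries it also had the highest stromal and endothelial sum (1310) and B lineage sum (1445) and the lowest enterocyte sum (392185). A link between these values was not tested. KO replicates 2 and 3, with low T lymphocyte genes, had 23.3 and 37.3. The recovered reads in listed genes numbered 3592468 to 4555872 per KO library and 4237178 to 5316273 per flox library, and the full depth is unknown.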

How the data were processed

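Per the labels' protocols, TRIzol RNA was selected on poly-T beads and libraries came from a NEBNext Ultra kit, which is not stated to mark strand. The submitters' processing notes name DESeq2 1.20.0, HISAT2 2.0.5, featureCounts 1.5.0-p3 and the GRCm38 (mm10) build, without settings. The 1 deposited table gives, per the file headers, log2 fold changes (KO over flox) from the authors, p-values and adjusted p-values, gene lengths, and a normalised signal per library. The signal deposited by the authors is reads per gene over a size factor that each library has to itself: dividing by the smallest step made 100% of values whole to within 0.001 reads. KO replicates 1 and 3 could not be checked automatically, so edgeR was also run without them. Their recovered values were whole to within 0.001 reads, as in every other library. All 2438 listed genes had an adjusted p under 0.05, and the adjustment ran over 16488 genes.

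limma 3.58.1 (trend, robust) was fitted to log2(normalised count + 1) of 2339 genes (mean 10 or more), which understates changes of low genes. Its p-values were adjusted by Benjamini-Hochberg over 16488 genes with unlisted genes at 1. edgeR 4.0.16 and DESeq2 1.42.0 were run on recovered reads. All 3 were tested on simulated data. A gene is called changed at an adjusted p under 0.05. Gene coordinates equal those of GENCODE vM21. Named genes were the 5 markers, every listed gene of the 7 T cell lists, and Vim for its level. The rule also took at most 3 of the largest changes in each other list, Ephb4, and the 10 most alike genes. A gene that this rule picks is not reported here. The 5 genes, lists and rules were chosen with earlier results of these data known. Two-sided exact permutation tests served for single values. Permutation p-values planned for pair correlations are not given singly, because the libraries fell into separate sets in Ptprc and Tcf7. Adjusted by Benjamini-Hochberg over the 10 pairs, they were under 0.05 for 8 pairs by r and 1 by rho within KO. Within flox these counts were 1 and 0, and over 16 libraries with genotype means subtracted 8 and 4. The counts take no account of that separation. No 2 libraries of a group were duplicates (smallest chi-square per degree of freedom 16.7).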

Additional observations from a re-analysis of the deposited data

Results flagged for a closer look

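Of 10 sets of values examined, 5 genes in each genotype, 2 held a library whose gap to its nearest neighbour was large for the range of its group, and chance gives about 1 in 20. Ptprc in flox replicate 2 had 1097 normalised counts, and the next flox library 632. Tcf7 in flox replicate 2 had 121.6, and the next flox library 59.8. The same library held 434 normalised counts of the listed stromal and endothelial genes and 594 of the B lineage genes, the highest among flox libraries, and 399 of the exocrine genes, the lowest. Their part in its T lymphocyte values was not tested.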

How the results depend on the processing

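All 5 genes had a positive difference of KO over flox in each of the 28 alternatives, so no direction turned among them. Of the 26 listed T cell genes, 1 turned negative with quantile normalisation (Gimap9, -0.04), 1 with the stromal covariate (Itga4, -0.05) and 8 with the B lineage covariate, the lowest being Itga4 at -0.18. The authors' calls of 5 of the 5 genes and 26 of the 105 T cell genes became 2 and 6 in limma, 2 and 5 with a pseudocount of 0.5, 2 and 6 with a pseudocount of 8, 2 and 7 without the filter and 2 and 8 with TMM scaling. They became 3 and 8 in edgeR, 2 and 3 in edgeR without KO replicates 1 and 3, and 4 and 19 in DESeq2. They became 0 and 0 with quantile normalisation, with the replicate block, without the 5 flox libraries with pancreatic transcripts, and with the stromal or the B lineage covariate. At an unadjusted p under 0.05 these last 5 settings gave 3 and 12, 2 and 5, 2 and 8, 1 and 4, and 1 and 3. With single libraries left out in turn the counts ran from 1 to 5 and from 1 to 19 (15 without flox replicate 2, 12 without KO replicate 3). By unadjusted p under 0.05 in limma they were 5 in every case and 21 to 26. The median log2 difference of the 5 genes was 0.93, ran from 0.87 to 1.11 with single libraries left out, and became 0.37 with the stromal and 0.30 with the B lineage covariate. TMM scaling moved the median of all fitted genes from -0.25 to -0.12 and quantile normalisation to 0.01. The median pair correlation of 0.71 became 0.43 as Spearman's rho, 0.87 without the 5 flox libraries, and ran from 0.61 to 0.75 with single libraries left out. The cause of these changes was not tested.

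The values gave no steady sign that the replicate numbers shared by KO and flox pair the libraries, but 6 pairs cannot exclude it. Over these 6 pairs the correlation of deviations ran from -0.43 to 0.37 and was over 0.1 in 3. Of the KO libraries, 1 correlated best with its own number. With the replicate block 9 listed genes passed limma, against 1269 without it. Of simple limits, Cd4 and Il7r rest on few reads, and unlisted genes could not be examined.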
